A study of Mus musculus with 6 samples.

Results

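Trichostatin A (TSA) was given to primary mouse macrophages that received no lipopolysaccharide (LPS), and their transcripts were set against those of macrophages with no treatment. The comparison rests on 2 of the 6 arrays of the study, those titled TSA and No treatment, chosen by their titles alone. The study asked whether TSA blocks the inflammatory genes that LPS, a bacterial cell wall component, switches on. Its other 4 arrays are titled LPS and TSA + LPS and, with GW3965 added to both, GW3965 + LPS and TSA + GW3965 + LPS, where GW3965 is a synthetic agonist of the liver X receptors (LXR). All 6 groups were macrophages elicited with thioglycollate, from female C57BL/6 mice aged 6 weeks, with 1 array each and no genetic change named. The labels state no dose or time for any agent and do not name the solvent, so the No treatment array is not known to be a solvent control.

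TSA blocks the zinc-dependent histone deacetylases, the enzymes that remove acetyl groups from lysines of histone tails and of many other proteins. Acetyl groups then accumulate on chromatin, and genes silent in a cell type are a well-known class that becomes transcribed, while many highly transcribed genes are known to lose transcript. Elicited macrophages are phagocytes that migrate into an irritated body cavity, with a large lysosomal compartment, a mobile actin cytoskeleton and a low tonic interferon signal.

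The deposited values are scaled intensities, with a median of 0.984 on the No treatment array and 0.987 on the TSA array. A value below an array's 25th percentile was raised to that percentile, the floor, which was 0.228 units on both arrays. Probes with a gene name stood for 8841 genes. A gene counted as measured when the brighter array of the pair was at or above its own median, which held for 4729 genes. A gene below the median on 1 array could thus count through the other alone. Genes below it on both arrays are in no count of measured list members. The gene lists were chosen with earlier results of these data known. A list's share set beside that of all genes is thus a description and no test. With 1 array a side there is no replicate, no error and no test within the pair, so genes at least 2-fold apart are a class of size. "Rose" and "fell" are kept for genes that passed a limma test (Benjamini-Hochberg adjusted p under 0.05, two-sided) in fits that hold more arrays. The 3-pair fit averaged the TSA effect over the rest pair and the 2 pairs with LPS. The LPS-pair fit used only the 4 arrays with LPS, none of which belongs to the rest pair. In effect its spread is the one shared among genes of like signal, so a gene could pass although its 2 pairs disagreed. The 3-pair fit holds the rest pair, so for genes named for their rest ratio it is no separate reading. Standard errors (SE) are from these fits.

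The tissue label was checked on macrophage markers. All 8 macrophage markers on the array were measured in the rest pair, and none differed 2-fold. Lyz2 (lysozyme) and Cd14 (the LPS co-receptor) were 1.41-fold and 1.36-fold apart. The summed level of the 8 was 1156 units in No treatment and 822 in TSA, against 1085 to 1366 on the arrays with LPS. Among neutrophil markers the sum was 25.5 units without TSA and 39.4 with it. S100a8 made up most of it, at 22 and 31.8, and Ltf read 0.771 and 1.11, while Mpo, Elane, Camp and Mmp9 were under the floor on both arrays. Prtn3, the neutrophil marker that differed 2-fold, was under the floor without TSA and read 4.24 with it. Ngp read 0.624 and 0.415, Csf3r 0.702 and 0.435, and Cxcr2 0.300 and 0.458. Among T cell markers the sum was 12.4 and 9.38, with Cd3e, Cd3g and Cd8a under the floor on both. Lat was the T cell marker that differed 2-fold, at 5.66 and 2.60. Cd4 read 2.16 and 1.63, and Cd2 1.81 and 2.38. Among natural killer cell markers the sum was 23.2 and 26.9, with Prf1 under the floor on both. Gzma made up most of it, at 21.6 and 24.9, and Klrk1 was the 1 member that differed 2-fold, at 0.541 and 1.10. The sum of mast cell markers was 24.15 and 22.76, and that of B cell markers 11.9 and 11.6. For fibroblast markers it was 8.70 and 13.3, with Dcn at 5.21 and 8.61, Pdgfra at 2.615 and 3.96 and Col1a2 at 0.412 and 0.274. None of the measured mast cell, B cell or fibroblast markers differed 2-fold. Itgax, listed as a dendritic cell marker and also made by macrophages, read 24.0 without TSA and 11.6 with it. The part of other cells in the results was not tested. In such bulk RNA, fewer cells of a type and less RNA per cell cannot be told apart.

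At rest, TSA left 330 of the 4729 measured genes (6.98%) higher by 2-fold or more and 222 (4.69%) lower by as much. The spread of the log2 ratio was an SD of 0.65 over genes, with a median of 0.05 and the middle 90% of genes between -0.97 and 1.11. The upper tail was longer: 31 genes were at least 4-fold higher and 8 at least 4-fold lower. The split depended on the scaling between arrays. Higher genes made up 59.8% of the 552 with the deposited scaling. Quantile normalization gave 299 higher and 288 lower (50.9% higher), and cyclic loess 281 and 254 (52.5%), with medians of all genes of -0.02 and 0.00. The higher class took 7.61% of genes among the dimmest genes and 4.40% among the brightest, of 4 equal classes of mean signal, and the lower class 5.75% and 2.45%. Of the 330 higher genes, 242 were at or above the array median on both arrays, and of the 222 lower genes 162. Among the 47 measured genes with several probes, all probes lay within 2-fold of each other in their ratio for 36. Of these 47, 9 were in a 2-fold class, and for 6 of the 9 all probes had the same direction.

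**Figure D1:**
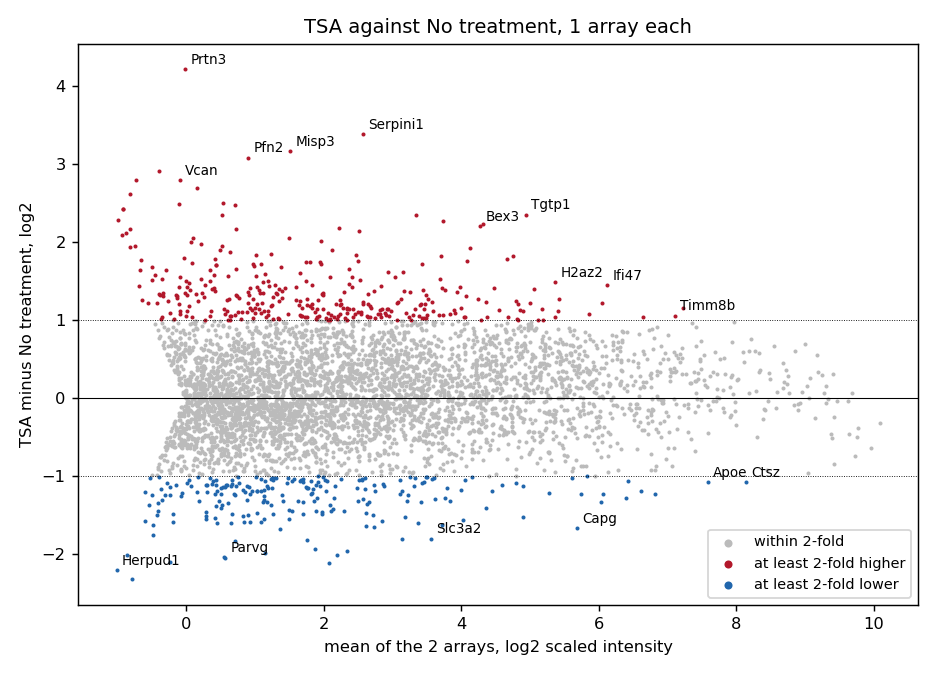
Log2 difference of TSA minus No treatment against the mean log2 scaled intensity of the 2 arrays, one point per measured gene (4729). Red points are the 330 genes at least 2-fold higher, blue points the 222 at least 2-fold lower, grey points the rest; dotted lines mark 2-fold. Serpini1 and Prtn3 lead the upper tail, and bright genes such as Ctsz and Apoe sit just past the lower line.

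The gene highest with TSA among those above the floor on both arrays was Serpini1, which encodes neuroserpin, a secreted inhibitor of tissue plasminogen activator made mainly by neurons. It read 1.83 units in No treatment and 19.1 in TSA, 10.4-fold higher. Misp3 read 0.945 and 8.49. Pfn2, the profilin typical of neurons, read 0.641 and 5.43, 8.47-fold higher. Apbb1, an adaptor that binds the amyloid precursor protein, read 0.276 and 2.08. The other eight of the 12 highest were Vcan, Slc30a4, Armcx2, Stat4, Svip, Gsta4, Tgtp1 and Rsph9, at 5.08-fold (Gsta4) to 6.94-fold (Vcan). Slc30a4 carries zinc out of the cytosol, at 0.436 and 2.83. Gsta4 conjugates lipid aldehydes to glutathione, at 0.632 and 3.21, and Stat4, the transcription factor of interleukin-12 signalling, was at 0.390 and 2.19. Svip, an inhibitor of endoplasmic reticulum-associated degradation, read 0.691 and 3.83.

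The arrays with LPS gave readings of these genes on other arrays, though whether from other cultures or mice is not stated. In the LPS-pair fit, 9 of the 11 of these 12 that could be tested rose, against 7.67% of all genes tested. Vcan and Tgtp1 were the 2 tested that did not pass. Serpini1 was 3.20 and 2.84 higher on the log2 scale in the pair with LPS and in the pair with LPS and GW3965. Pfn2 was 2.64 and 3.33 higher there. In the 3-pair fit 10.8% of all 4806 genes rose and 7.64% fell. There Serpini1 rose by 3.14 ± 0.21 (log2 ± SE, adjusted p = 2.0e-07) and Pfn2 by 3.02 ± 0.24 (adjusted p = 8.3e-07).

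**Figure D2:**
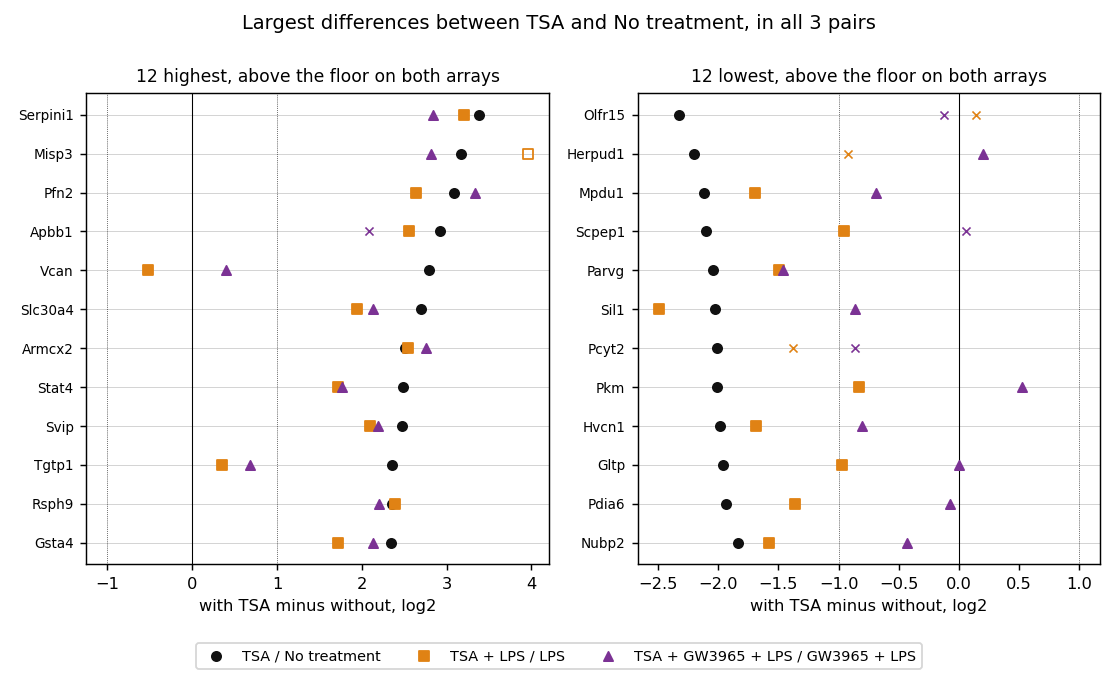
Log2 difference with TSA minus without for the 12 highest (left) and 12 lowest (right) genes of the rest pair, in the rest pair (circles), the pair with LPS (squares) and the pair with LPS and GW3965 (triangles). An open symbol has 1 array under the floor, so it is a lower bound, and a cross marks a pair in which both arrays were below their median. On the left the 3 symbols lie close together except for Vcan and Tgtp1; on the right the triangles lie nearest to 0.

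Of the higher genes, 6 had no signal above the floor without TSA, so their folds are lower bounds. Prtn3 (proteinase 3, a serine protease of neutrophil granules) was under the floor in No treatment and read 4.24 in TSA, at least 18.6-fold higher, while Mpo and Elane of the same granules stayed under the floor on both arrays. Stard10 (a phospholipid transfer protein) reached 1.59, at least 6.96-fold, and Gipc2 1.41, at least 6.17-fold. Nrtn (neurturin, a neurotrophic ligand) and Adgrl4 (an adhesion receptor of endothelium) both reached 1.23. Ift81 (a subunit of the train that carries cargo along cilia) reached 1.11, at least 4.88-fold. No gene at least 2-fold lower fell under the floor with TSA. In the LPS-pair fit, 2 of these 6 genes could be tested, Prtn3 and Stard10, and both rose, where 7.67% of all genes tested did.

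All 7 measured core and linker histone genes lay above 0, with a median of 0.68. Of the 7, 2 were at least 2-fold higher, where 6.98% of all genes were. H2az2, a variant H2A placed at promoters, read 24.7 in No treatment and 69.0 in TSA, 2.80-fold higher. H1f2, a linker histone, read 1.30 and 3.63, also 2.80-fold. H2az1 was 1.71-fold and H3c1 1.60-fold higher. These 4 all rose in the LPS-pair fit, where 7.67% of all genes tested did. Oligo-dT priming favours polyadenylated transcripts, and histone genes vary in whether their transcripts carry a poly(A) tail, which was not tested here. None of 8 measured deacetylase and sirtuin genes was 2-fold apart. Hdac1 read 2.39 and 2.84, Hdac3 1.69 and 1.66, and Hdac5 5.44 and 5.46. Hdac2 read 3.17 and 5.45, Hdac6 1.68 and 2.77, Sirt1 3.55 and 6.5 and Sirt3 1.04 and 0.627, differences about as large as those of H2az1 and H3c1. In the 3-pair fit Hdac6 rose by 0.77 ± 0.23 and Sirt1 by 0.83 ± 0.21, and neither passed the LPS-pair fit (adjusted p = 0.10 and 0.053). TSA acts on the enzymes, so these transcripts do not check the treatment.

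Of 31 measured acetyltransferases, corepressors and other chromatin regulators, 2 were higher and 2 lower, 6.45% each. Of all measured genes, 6.98% were higher and 4.69% lower. Mbd3, a subunit of the NuRD deacetylase complex, read 3.72 without TSA and 1.27 with it, and fell by 1.25 ± 0.26 in the 3-pair fit. Smarcb1, a core subunit of the SWI/SNF remodeller, read 4.02 and 1.90 and fell by 1.03 ± 0.23. Rbbp4, a histone chaperone found in several deacetylase complexes, read 28.8 and 59.0, and Nap1l1, a histone chaperone, 8.44 and 22.0; neither passed either fit. Among 18 measured genes that are known to respond to deacetylase inhibitors, 2 were higher and 2 lower, 11.1% each. Cdkn1a, which encodes the cell cycle inhibitor p21 and is known as a gene induced by deacetylase inhibitors, was lower here, at 1.46 without TSA and 0.689 with it. It fell by 1.04 ± 0.22 in the 3-pair fit (adjusted p = 0.0036). Mt2, a metallothionein, read 1.64 and 3.91 and rose by 1.30 ± 0.21.

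The list with the highest median was that of cilium and axoneme genes. All 11 measured members were above 0, with a median log2 ratio of 1.04 against 0.05 for all measured genes. At least 2-fold higher were 6 of the 11, where 6.98% of all genes were. Of these 6, Ift81 and Ift88 were below the median in No treatment, so they counted as measured through the TSA array alone. Rsph9, a radial spoke protein of motile cilia, read 4.47 in No treatment and 22.8 in TSA, 5.10-fold higher. Ift57, of the intraflagellar transport complex, read 2.92 and 10.4. Spa17, a sperm flagellum protein, read 1.80 and 5.48. Arl3, a small GTPase that releases cargo in cilia, was brighter, at 11.4 and 23.5, and Ift88 read 0.569 and 1.43. In the LPS-pair fit, 5 of 7 tested members rose, against 7.67% of all genes tested. Foxj1, Tekt1, Dnaic1, Lrrc6 and Rp1 were under the floor on all 6 arrays, while Rsph1, another radial spoke protein, read 0.289 and 0.656 at rest, below the median on both. Spag1 was also below the median on both, at 0.476 and 0.307. Such members are not in the counts of this list. Its members were chosen with earlier results of these data known, so its share beside 6.98% is no test.

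Genes typical of neurons and germ cells were represented by a few large differences and many small ones. Of all measured genes, 6.98% were at least 2-fold higher. Of 44 neuronal genes on the array only 13 were measured at rest, and 4 of the 13 were at least 2-fold higher, Serpini1, Pfn2, Armcx2 and Bex3, with a list median of 0.12. Bex3, a small adaptor of neurotrophin receptor signalling, read 9.0 and 41.4, and Armcx2 0.608 and 3.45. All 4 also rose in the LPS-pair fit, where 7.67% of all genes tested did. Of 9 measured germ cell and testis genes, 2 were higher. Insl6, an insulin-like peptide of the testis, read 6.04 and 29.2, and Tex15 read 0.253 and 1.08. A member had to be above the median on 1 array to be measured, so silent members that TSA left silent are not in these counts. The members of both lists were chosen with earlier results of these data known, so their shares beside 6.98% are no test.

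Of 22 measured apoptosis genes, 6 were at least 2-fold higher, where 6.98% of all genes were, and none lower. Of the 22, 13 were above 0, as were 2511 of all 4729, and the median was 0.59. The death receptor Fas read 1.38 without TSA and 5.73 with it, 4.15-fold higher, and rose by 1.46 ± 0.23 in the 3-pair fit. Pmaip1 (Noxa, a BH3-only protein that promotes cell death) read 2.25 and 8.4. Casp2 read 6.73 and 17.6, Casp4 8.08 and 21.6, Bnip3 5.62 and 13.6. Birc2, an inhibitor of apoptosis, was also higher, at 4.36 and 9.0, and passed neither fit. The list held fallen genes too: Tnfrsf1a, the tumour necrosis factor receptor, read 5.42 and 2.86, and Bak1 3.61 and 2.16. Both fell in the 3-pair fit, and Bak1 also in the LPS-pair fit.

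Of 22 measured cell cycle and DNA replication genes, 5 were higher, where 6.98% of all genes were, and none lower. Of the 22, 17 were above 0, with a median of 0.42. Cdk1, the kinase that drives mitosis, read 3.85 and 9.06, and Cdkn3 0.731 and 1.99. Rb1, the retinoblastoma protein that holds back entry into S phase, read 3.11 and 7.2. Prim1, a DNA primase subunit, read 1.07 and 2.15. These 4 rose in the LPS-pair fit, where 7.67% of all genes tested did. Mki67 (the proliferation antigen Ki-67) read 1.65 and 4.41 at rest and is taken up again with the genes whose TSA difference depended on LPS.

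**Figure D3:**
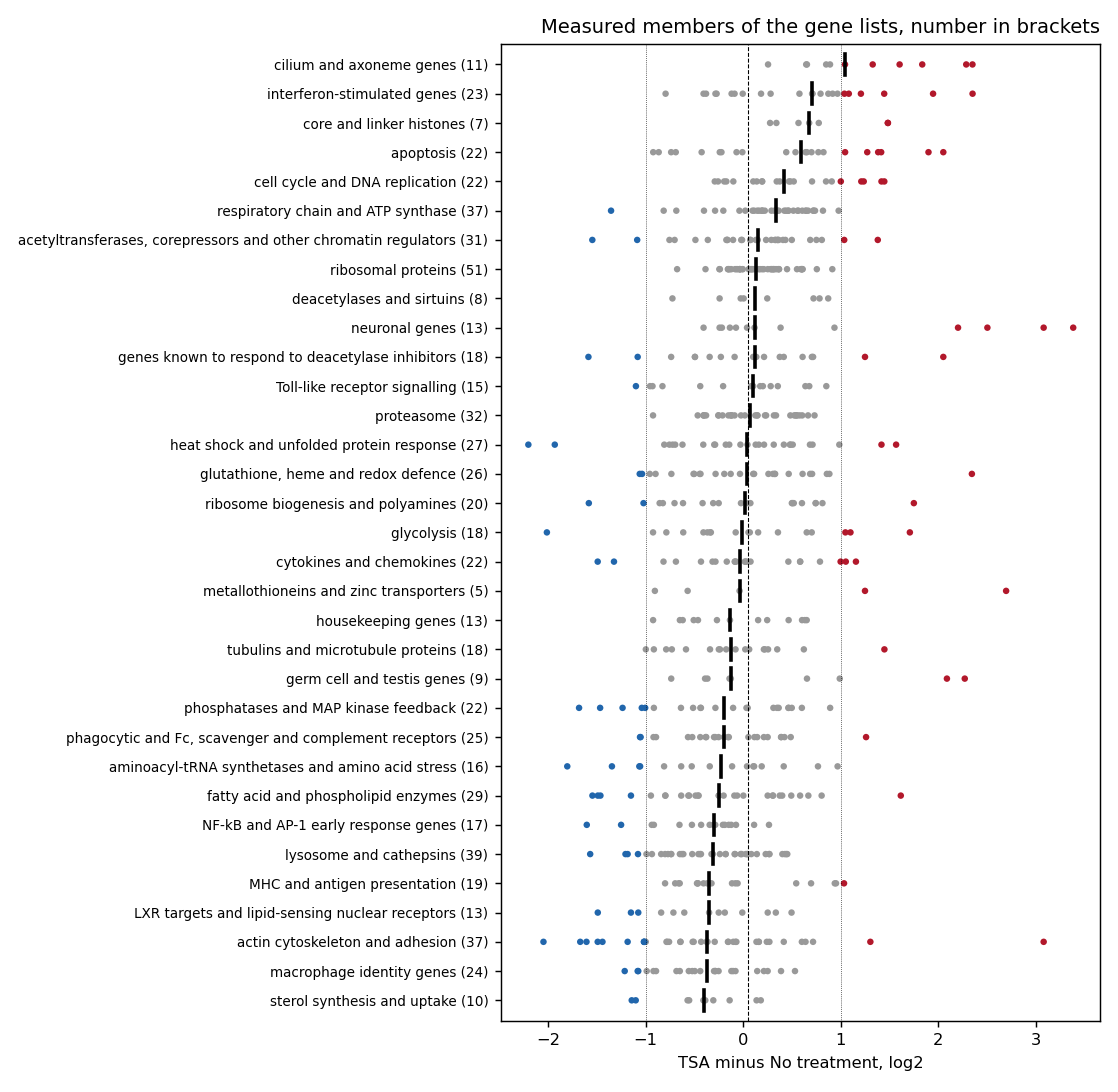
Log2 difference of TSA minus No treatment for the measured members of each list with at least 5 of them (number in brackets), sorted by median. Each point is a gene, red if at least 2-fold higher and blue if at least 2-fold lower; black bars are list medians, and the dashed line is the median of all measured genes (0.05). Cilium genes (1.04) and interferon-stimulated genes (0.71) have the highest medians, sterol synthesis and uptake (-0.40) the lowest.

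Some interferon-stimulated genes were higher at rest with TSA. Of 23 measured members, 6 were at least 2-fold higher, where 6.98% of all genes were, and none lower. Of the 23, 15 were above 0 and 8 below, with a median of 0.71. Tgtp1, a guanosine triphosphatase of the immunity-related family that attacks the vacuoles of intracellular parasites, read 13.6 in No treatment and 69.3 in TSA, 5.11-fold higher. Its near-identical copy Tgtp2 may share the probe's signal. Iigp1, of the same family, read 0.730 and 2.82, and Ifi47 42.3 and 115. Ifih1, the cytosolic sensor of double-stranded RNA also called MDA5, read 7.29 and 16.8. Ifit1, which binds foreign RNA caps, read 0.646 and 1.37, and the guanylate-binding protein Gbp3 3.73 and 7.66. Of these, Iigp1 and Ifit1 were below the median in No treatment, so they counted as measured through the TSA array alone. Among members below the median on both arrays, Ifit2 was 2.71-fold and Mx1 at least 2.06-fold higher, and Parp14 at least 2.47-fold lower. Not all members took part. Irf7, a main amplifier of interferon production, read 31.4 and 31.3, and Adar, an RNA editing enzyme, 1.42 and 0.820. Ifng, the gene of interferon gamma, read 0.267 without TSA and was under the floor with it.

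The promoters of 3 of these genes are shown because they hold the core of the interferon-stimulated response element, the site bound by complexes of STAT and IRF factors. The element was searched on both strands as TTTC, any 2 bases and TTTC again, which reads GAAA, any 2 bases and GAAA on the other strand, in the 250 bases before to 50 bases after each RefSeq start in GRCm38.p6. The 250 bases before the start are given 5′ to 3′ on the gene's strand, with matches in capitals. Tgtp1 lies at chr11:48992247-48992496 on the minus strand, Ifit1 at chr19:34640639-34640888 on the plus strand and Gbp3 at chr3:142559794-142560043 on the plus strand, for the first of its 2 listed promoters.
Tgtp1: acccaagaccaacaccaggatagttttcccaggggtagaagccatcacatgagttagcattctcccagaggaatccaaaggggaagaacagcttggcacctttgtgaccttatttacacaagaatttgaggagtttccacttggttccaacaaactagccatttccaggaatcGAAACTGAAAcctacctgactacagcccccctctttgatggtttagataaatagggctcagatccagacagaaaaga
Ifit1: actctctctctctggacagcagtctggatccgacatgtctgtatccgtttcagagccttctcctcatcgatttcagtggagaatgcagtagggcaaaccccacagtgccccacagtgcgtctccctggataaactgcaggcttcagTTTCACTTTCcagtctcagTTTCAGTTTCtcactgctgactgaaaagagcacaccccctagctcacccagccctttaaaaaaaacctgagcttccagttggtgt
Gbp3: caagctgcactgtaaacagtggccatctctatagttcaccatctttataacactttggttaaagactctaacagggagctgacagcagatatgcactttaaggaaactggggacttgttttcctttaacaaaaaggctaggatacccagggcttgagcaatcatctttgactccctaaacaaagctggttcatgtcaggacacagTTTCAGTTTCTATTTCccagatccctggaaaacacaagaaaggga
The match begins 77 bases before the start in Tgtp1, 104 and 85 bases before it in Ifit1, and 45 and 39 bases before it in Gbp3, where the 2 matches overlap. Of the 5 higher interferon-stimulated genes with a listed promoter, 4 held the core in the 300 bases; the fourth, Ifih1, held it outside the 250 bases before its start, and Ifi47 held none. Among the other measured members 6 of 15 promoters held it (40.0%). The share was 5.08% among the 256 higher genes with a listed promoter, 2.19% among 183 lower genes, 3.43% among all 3876 measured genes with one and 3.49% among all 27025 promoters of the table. A match describes the letters and is no evidence that a factor bound there.

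The same genes did not differ in this way when LPS was present. All 23 interferon-stimulated genes measured in every pair had a higher TSA ratio in the rest pair than in the pair with LPS, where 54.8% of all 4400 such genes did, and 19 of 23 had a higher one than in the pair with LPS and GW3965, against 53.7%. Their medians were 0.71 at rest, -0.69 with LPS and -0.02 with LPS and GW3965. Of the 23, Iigp1, Ifit1 and Ifit3 counted as measured at rest through the TSA array alone, and Adar through the No treatment array alone. Ifih1 read 324 with LPS and 261 with TSA + LPS. Ifit1 read 148 and 101 there, and Gbp3 135 and 48.0. Tgtp1 read 314 and 400, so its level with TSA alone, 69.3, was below either. With GW3965 added to both, Ifih1 read 166 and 173, Gbp3 80.0 and 84.0, and Tgtp1 132 and 212. In the 3-pair fit 1 of 33 tested members rose, Tgtp1, and 2 fell, Tap1 and Adar, against 10.8% and 7.64% of all genes tested. In the LPS-pair fit 8 of 33 tested members fell, against 6.14% of all genes tested there, and the others did not pass. The 2 pairs of that fit differed. At least 2-fold lower were 9 of 34 measured members in the pair with LPS, where 9.55% of all genes were. In the pair with LPS and GW3965 it was 0 of 33, against 1.13%. Gbp3, which fell, had log2 ratios of -1.49 and 0.07, so its call rested on 1 pair. The difference itself, tested gene by gene, passed for Tgtp1 and Gbp3, and for neither with the floor at the array median or with genes required to reach the median on every array.

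**Figure D4:**
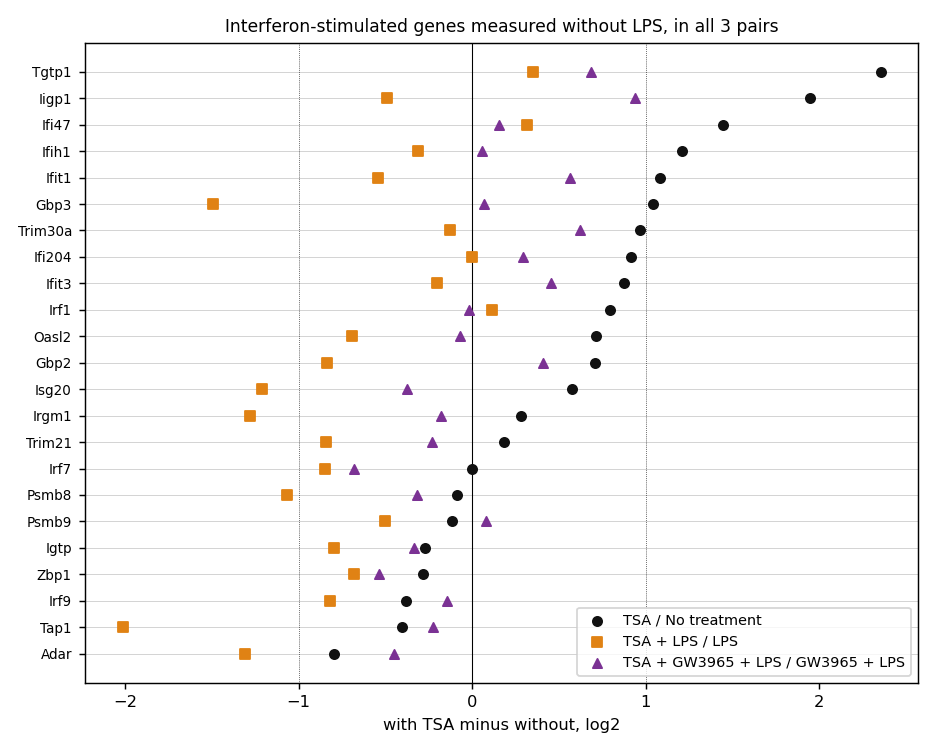
Log2 difference with TSA minus without for the 23 interferon-stimulated genes measured at rest, sorted by the rest pair (circles), beside the pair with LPS (squares) and the pair with LPS and GW3965 (triangles). Each circle lies to the right of its square, and the circles of Tgtp1, Iigp1, Ifi47, Ifih1, Ifit1 and Gbp3 lie past 2-fold.

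Some genes of the actin cytoskeleton were lower with TSA. Of 37 measured members, 9 were at least 2-fold lower, where 4.69% of all genes were, and 2 at least 2-fold higher, with a median of -0.37. Capg, which caps the ends of actin filaments and is abundant in macrophages, read 91.7 in No treatment and 28.8 in TSA, 3.18-fold lower. Parvg, a leukocyte adaptor between integrins and actin, read 3.01 and 0.728. Pfn1, the common profilin that feeds actin monomers to growing filaments, read 147 and 64.8, the opposite direction to its paralog Pfn2. Actin gamma (Actg1) read 6.06 and 2.23, Vasp, which speeds filament growth, 3.50 and 1.73, and tropomyosin Tpm3 15.9 and 7.85. The depolymerizing factor cofilin split in the same way as the profilins: Cfl1 read 87.1 and 43.6, and Cfl2, the muscle type, 10.7 and 26.5. In the LPS-pair fit 11 of 39 tested members fell and 2 rose, against 6.14% and 7.67% of all genes tested. Actn4 and Evl, 3.04-fold and 2.81-fold lower at rest, passed neither fit.

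The promoter of Pfn2 is shown with that of Rsph9 because both genes were among the 12 highest and each held GC boxes, sites for Sp1-family factors, searched as GGGCGG on both strands (CCGCCC on the other). Matches are in capitals, with Pfn2 at chr3:57847758-57848007 and Rsph9 at chr17:46144201-46144450, both on the minus strand.
Pfn2: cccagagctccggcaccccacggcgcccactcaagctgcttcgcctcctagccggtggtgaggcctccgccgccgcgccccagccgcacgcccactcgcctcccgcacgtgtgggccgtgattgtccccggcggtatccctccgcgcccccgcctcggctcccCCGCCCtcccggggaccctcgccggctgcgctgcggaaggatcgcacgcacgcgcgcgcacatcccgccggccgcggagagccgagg
Rsph9: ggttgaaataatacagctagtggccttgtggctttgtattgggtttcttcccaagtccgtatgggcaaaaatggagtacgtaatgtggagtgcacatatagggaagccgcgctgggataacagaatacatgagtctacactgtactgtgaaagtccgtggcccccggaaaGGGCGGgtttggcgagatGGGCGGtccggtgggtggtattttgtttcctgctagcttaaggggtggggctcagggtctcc
The match begins 87 bases before the start in Pfn2 and 80 and 62 bases before it in Rsph9. Such a box was as common in other promoters: 60.2% of the higher genes held one, 62.8% of the lower and 61.9% of all measured genes, against 35.9% of all promoters of the table. The CCAAT box, searched as CCAAT on both strands, was held by 48.4% of the higher genes, 36.6% of the lower and 38.9% of all measured genes.

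Of all 4729 measured genes, 2218 were below 0 and 4.69% at least 2-fold lower. Of 39 measured lysosomal genes, 4 were at least 2-fold lower and none higher, and 27 were below 0 and 12 above, with a median of -0.31. Ctsz, a cathepsin, read 408 and 193, and Ctsk, the cathepsin known from osteoclasts, 28.1 and 9.46; both fell in the LPS-pair fit as well. Atp6ap1, an accessory subunit of the proton pump, read 33.0 and 14.5. Of 24 measured macrophage identity genes, 3 were lower and none higher, and 19 were below 0, with a median of -0.37. Apolipoprotein E (Apoe) read 279 and 132, the tetraspanin Cd53 59.1 and 25.5, and the myeloid factor Cebpa 1.2 and 0.566. None of these 3 passed the LPS-pair fit, where the adjusted p of Apoe was 0.40.

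Some lipid genes were at least 2-fold lower, where 4.69% of all genes were. Of 13 measured LXR targets and lipid-sensing receptors, 3 were lower and none higher, with a median of -0.35: Apoe, the fatty acid synthase Fasn and the desaturase Scd2. Fasn read 3.39 and 1.53 and fell by 1.43 ± 0.23 in the 3-pair fit. Scd2 read 6.60 and 2.35. Nr1h3, the gene of LXR alpha, read 10.7 and 6.53, and Abca1, the cholesterol exporter, was under the floor without TSA and read 0.264 with it. In sterol synthesis and uptake, 2 of 10 measured genes were lower, Mvk and Nsdhl, and 8 of 10 were below 0. Among 29 fatty acid and phospholipid enzymes, 4 were lower and 1 higher, and 11 were above 0. The lipase Mgll read 4.78 and 1.64 and the citrate lyase Acly 2.02 and 0.732, while the phospholipase Pla2g4a, which frees arachidonic acid, read 4.37 and 13.4.

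Stress and signalling genes followed, set against 6.98% of all genes in the higher class and 4.69% in the lower. Of 16 measured genes of aminoacyl-tRNA synthetases and amino acid stress, 4 were lower and none higher. Slc3a2, the heavy chain of large amino acid transporters, read 21.9 and 6.29, 3.49-fold lower, and fell by 1.41 ± 0.22 in the 3-pair fit. Cars read 1.2 and 0.472. Atf4, the factor that drives this programme, read 170 and 110 and fell by 0.67 ± 0.18 in the 3-pair fit, with an adjusted p of 0.060 in the LPS-pair fit. Of 22 measured phosphatases and MAP kinase feedback genes, 5 were lower and none higher. Ptpn1, a tyrosine phosphatase that restrains cytokine receptors, read 4.59 and 1.43, and Map2k3, the kinase upstream of p38, 3.40 and 1.23. In the heat shock and unfolded protein response list, 2 of 27 were lower and 2 higher, 7.41% each. Herpud1, a component of endoplasmic reticulum-associated degradation, read 1.06 and 0.230, and Pdia6, a disulphide isomerase, 7.12 and 1.87. Hspb1, a small heat shock protein, read 0.808 and 2.16 and rose in the LPS-pair fit.

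Inflammatory genes were set against the 6.98% of all measured genes that were higher and the 4.69% that were lower. Of 34 NF-kB and AP-1 early response genes on the array 17 were measured. Of these 17 genes, 2 were lower, none higher, and 15 were below 0, with a median of -0.30. Atf3, a repressor of inflammatory transcription, read 18 without TSA and 5.91 with it, and Nfkb2 1.46 and 0.612. Both fell in the LPS-pair fit. The log2 ratio of Atf3 was -1.71 in the pair with LPS and -0.23 in the pair with LPS and GW3965, so its call rested mainly on 1 pair. Of 22 measured cytokines and chemokines, 3 were higher and 2 lower, with a median of -0.03. Il15, Cxcl9 and Il18 were 2.23-fold, 2.08-fold and 2.00-fold higher. Il1rn, the interleukin-1 receptor antagonist, read 5.43 and 1.93, and Tgfb1 14.6 and 5.84. Tnf, Il6 and Il1b were below the median on both arrays of the rest pair, so they are in no count. Tnf read 0.648 without TSA and was under the floor with it, at least 2.84-fold lower. Il6 read 0.413 and 0.447, and Il1b 0.359 and 0.280. Of 15 Toll-like receptor signalling genes, 1 was lower, Irf5, at 1.89 and 0.884. Myd88, the adaptor of most Toll-like receptors, read 5.38 and 2.77 and Irak1 9.86 and 5.18, and both fell in both fits, while Tlr4 read 1.21 and 1.55. The log2 ratio of Myd88 was -1.79 in the pair with LPS and -0.15 in the pair with LPS and GW3965, so its LPS-pair call rested mainly on 1 pair.

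Energy and protein synthesis genes moved by less. Of 37 measured respiratory chain and ATP synthase genes, 30 were above 0, with a median of 0.33, none was 2-fold higher and 1 was lower, Atp5b at 9.91 and 3.88. In the 3-pair fit 11 of them rose, by 0.55 (Atp5j) to 0.93 (Uqcrb), and 1 fell, against 10.8% and 7.64% of all genes tested. None of 51 ribosomal protein genes or of 32 proteasome genes was 2-fold apart, with medians of 0.13 and 0.07. In glycolysis, 3 of 18 were higher and 1 lower, where 6.98% and 4.69% of all genes were. Pkm, the pyruvate kinase, read 9.19 and 2.28, 4.03-fold lower at rest. Its log2 ratio was -0.83 in the pair with LPS and 0.52 in the pair with LPS and GW3965. Hif1a, the hypoxia factor that drives glycolytic genes, read 5.38 and 11.1. Of 13 housekeeping genes none was 2-fold apart. Gapdh read 494 and 550, Actb 802 and 565, and Eef1a1 480 and 253.

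The remaining lists held few large differences, set against 6.98% of all genes in the higher class and 4.69% in the lower. In glutathione, heme and redox defence, 1 of 26 was higher, Gsta4, and 2 lower, Txnrd1 and Txn2. In ribosome biogenesis and polyamines, Nop10 was higher at 1.82 and 6.12, and Srm, the spermidine synthase, lower at 1.51 and 0.505. Of 18 tubulins and microtubule proteins, 1 was higher, stathmin (Stmn1) at 2.14 and 5.84. Of 19 MHC and antigen presentation genes, 1 was higher, the costimulatory ligand Cd86 at 4.47 and 9.15, and 14 were below 0. Of 25 phagocytic, Fc, scavenger and complement receptors, 1 was higher and 2 lower. The C-type lectin Clec4e read 0.976 and 2.34, and its neighbour Clec4d 123 and 59.3. Of 5 metallothionein and zinc transporter genes 2 were higher, Slc30a4 and Mt2. All 3 measured keratin, junction and epithelial genes stayed within 2-fold.

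Among the genes with the highest mean signal in the higher class, Mrfap1 read 99.8 and 222, Timm8b, a chaperone of mitochondrial import, 95.5 and 199, and Dynlt1b, a dynein light chain with near-identical copies, 69.9 and 144. Snrpb2, a spliceosomal protein, read 43.4 and 101. Of the 10 brightest higher genes, 6 rose in the LPS-pair fit, against 7.67% of all genes tested there. In the lower class, Ckb, the brain-type creatine kinase, read 172 and 73.3. Rab7, the GTPase of late endosomes, read 131 and 54.0. Gpnmb, a lysosomal membrane glycoprotein, read 104 and 41.1. Of the 10 brightest lower genes, 5 fell in the LPS-pair fit, against 6.14% of all genes tested there. The 12 lowest genes by ratio, all above the floor on both arrays, ran from Nubp2, 3.57-fold lower, to Olfr15, an olfactory receptor, at 1.30 and 0.259. They included Mpdu1, of dolichol sugar use, at 8.75 and 2.02, and Hvcn1, the voltage-gated proton channel of phagocytes, at 4.39 and 1.11. They also included Sil1, Pcyt2, Scpep1 and Gltp. Of the 8 that the LPS-pair fit could test, 5 fell, against the same 6.14%.

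The arrays with LPS offered a reading of the whole classes in samples that the rest pair does not share. Of the 330 higher genes, 295 were tested in the LPS-pair fit; 151 rose (51.2%) and 1 fell, against 7.67% risen among all genes tested there. Of the 222 lower genes, 191 were tested; 63 fell (33.0%) and 1 rose, against 6.14% fallen among all. Of 3920 tested genes within 2-fold at rest, 196 rose (5.0%) and 177 fell. Taken the other way, of 348 genes risen in the LPS-pair fit and measured at rest, 151 (43.4%) were 2-fold higher at rest. Of 241 fallen ones, 63 (26.1%) were 2-fold lower at rest. The median log2 ratio of the higher genes was 1.22 at rest, 0.83 in the pair with LPS and 0.83 in the pair with LPS and GW3965. That of the lower genes was -1.20, -1.03 and -0.36. Members chosen for a large ratio in 1 pair are bound to be smaller on average in others, so the step from the rest pair to the LPS pairs is not read as a difference. Over 4400 genes measured in every pair, the rest ratio and the mean ratio of the LPS pairs had a Pearson r of 0.659 across genes, which are not independent. The pair with LPS had 7.57% of its measured genes in the higher class and 9.55% in the lower, and the pair with LPS and GW3965 had 4.83% and 1.13%. In all 3 pairs, 87 genes were at least 2-fold higher and 10 at least 2-fold lower: Atad3a, Capg, Cmtm3, Fasn, Mgll, Parvg, Ptpn1, Srm, Stra6l and Ubxn8.

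By size alone, 16 genes were at least 2-fold higher at rest and in both LPS pairs at most 1.2-fold higher, or lower. They included Parp8, Rab38, Melk, Osbpl3 and Hif1a beside Ifih1, Gbp3 and Mki67. Parp8 read 0.756 and 2.14 at rest, and the melanosome GTPase Rab38 1.47 and 4.04. In the other direction 11 genes were at least 2-fold lower at rest and at most 1.2-fold lower, or higher, in both LPS pairs, among them Cd53, Actn4, Klc4 and Lmna. These genes were picked after their values were seen, and a test of the difference follows for all genes.

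A limma fit over all 6 arrays tested whether the TSA effect without LPS differed from that with LPS. Of 4806 genes, 10 had a higher effect without LPS (0.208%) and 3 a lower one (0.0624%), 0.27% in all, where an unadjusted p under 0.05 was met by 240. The fit has 1 residual degree of freedom, and its spread is shared among genes of like signal. Vcan, the matrix proteoglycan versican, read 0.354 without TSA and 2.46 with it at rest, 21.2 and 14.8 with LPS, and 7.84 and 10.4 with LPS and GW3965. Its difference was 2.85 ± 0.51 (log2 ± SE, adjusted p = 7.8e-05). Tgtp1 differed by 1.84 ± 0.45 (adjusted p = 0.024) and Gbp3 by 1.75 ± 0.44 (adjusted p = 0.030). Mki67 read 1.65 and 4.41 at rest, 26.7 and 18.8 with LPS, and 26.4 and 18.5 with LPS and GW3965, a difference of 1.93 ± 0.47. For these 4 genes the level with TSA alone stayed below that of every array with LPS.

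The other six genes with a higher effect without LPS were not 2-fold higher among the measured genes at rest. Ptx3 (a secreted pattern recognition protein) and Arhgef2 were under the floor on both rest arrays. Il6 (interleukin-6), Vnn3 and Lpar1 were below the median on both, and Tma16 read 3.17 and 3.57. Among the 3 with a lower effect without LPS, Lmna, the gene of lamin A of the nuclear envelope, read 7.16 without TSA and 2.67 with it at rest, 2.83 and 3.0 with LPS, and 2.04 and 5.25 with LPS and GW3965, a difference of -2.15 ± 0.54. Cebpb, a transcription factor of macrophage activation, read 10.1 and 5.07 at rest, 23.7 and 53.3 with LPS, and 24.9 and 30.8 with LPS and GW3965, a difference of -1.73 ± 0.45. Susd3 was higher with TSA in every pair, at 8.90 and 14.7 at rest. None of the 13 passed in limma when the floor was each array's median, where 204 genes had an unadjusted p under 0.05. Vcan, Il6, Ptx3, Arhgef2, Lpar1, Vnn3 and Susd3 were each below the median on some array. A rule that genes reach the median on every array left them untested, and no other gene passed under it. The adjusted p of Cebpb, Lmna, Mki67, Tgtp1 and Tma16 was then 0.054 to 0.068, with 165 genes at an unadjusted p under 0.05.

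**Figure D5:**
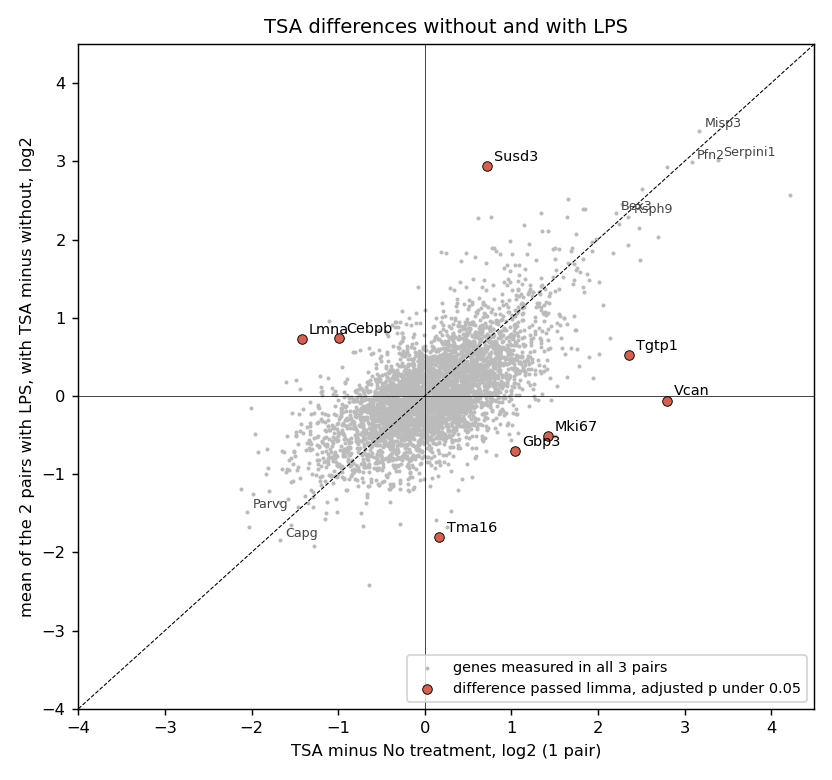
Mean log2 difference of the 2 LPS pairs (with TSA minus without, vertical) against that of the rest pair (horizontal), one grey point per gene measured in all 3 pairs (4400). Red points are the 8 of the 13 genes with an adjusted p under 0.05 for the difference that were measured in every pair, and the dashed line marks equal effects. Vcan, Tgtp1, Mki67 and Gbp3 lie to the right near or below 0 on the vertical axis, and Lmna and Cebpb lie to the left above it.

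Genes on the X chromosome had the highest share in the higher class, 22 of 154 measured (14.3%), against 6.98% of all measured genes. In the LPS-pair fit 17 of 157 tested X-linked genes rose (10.8%), against 7.67%, and chromosomes 13 and 14 had higher shares there, 13.7% and 11.5%. The lowest rest share was on chromosome 8, at 3.21%. No test was made of these shares. Bex3 and Armcx2, named above, are X-linked.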

How the data were processed

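The 6 arrays were read from 1 deposited table. Per the labels' protocols, 0.5 ug of total RNA was primed with oligo-dT, amplified by in vitro transcription, labelled with biotin and hybridised in 1 colour. The deposited values are intensities on a linear scale that the authors had scaled between arrays; the scanner software, the background treatment and the scaling method are not given in the sources used here. Between 19 and 28 values an array were at or below 0. Of 10076 probes, 8983 carried 1 gene symbol in the platform annotation, 1 several and 1092 none; for 138 genes with more than 1 probe, the brightest probe by mean was taken.

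Values were floored at each array's 25th percentile (0.198 to 0.245 units) and converted to log2 ratios; a fold with 1 array under the floor is a lower bound. The number of arrays, 1 in each of 6 groups, limits the precision. Whether the arrays came from different cultures or mice is not stated, so p-values reflect how these arrays vary, which may be technical variation alone. Fits used limma 3.58.1 in R 4.3.3 with an intensity trend, on genes at or above the array median on at least 2 arrays: an additive fit over 3 pairs (4806 genes, 2 residual and 15.1 prior degrees of freedom), a fit of the 4 arrays with LPS (4629 genes, 1 residual degree of freedom) and a fit of the difference (1 residual degree of freedom). Floored values enter as the floor. Named genes are the 12 highest and 12 lowest ratios, genes under the floor on 1 array, the 10 brightest in each class, the 4 members of each list farthest from 0, genes passing the difference test and a fixed set; a few others were named after their values were seen. The members and the 34 gene lists were chosen with earlier results of these data known. Alternatives were quantile and cyclic loess scaling, other floors, filters and fold sizes, averaged probes, no intensity trend and leaving out a pair. Promoters came from RefSeq (GRCm38.p6) and were matched by symbol. Python 3.11.15 drew the plots.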

Additional observations from a re-analysis of the deposited data

Results flagged for a closer look

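The TSA effect without LPS and that with LPS were set against each other in a limma test of the difference over 6 arrays, which 13 genes passed as run. The log2 difference was positive for Ptx3 (3.40), Arhgef2 (2.90), Vcan (2.85), Lpar1 (2.56), Vnn3 (2.25), Il6 (2.00), Tma16 (1.97), Mki67 (1.93), Tgtp1 (1.84) and Gbp3 (1.75). It was negative for Susd3 (-2.22), Lmna (-2.15) and Cebpb (-1.73). Ptx3 and Arhgef2 were under the floor on both rest arrays, so their rest effect is set by the floor, and Il6, Vnn3 and Lpar1 were below the median on both; for these 5 no TSA effect at rest was measured. Vcan, Tgtp1, Mki67 and Gbp3 were 2-fold higher with TSA at rest, and Lmna was at least 2-fold lower. None of the 13 passed with values floored at the array median. With genes required to reach the median on every array, Vcan, Il6, Ptx3, Arhgef2, Lpar1, Vnn3 and Susd3 were left out untested. None of the others passed.

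Probes with no single gene symbol took no part in the comparisons. Of 544 such probes that met the level rule at rest, TSA left 35 (6.43%) higher by 2-fold or more and 23 (4.23%) lower by as much. The farthest were 5.75-fold higher and 5.66-fold lower.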

How the results depend on the processing

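With the size rule at 1.5-fold, 934 genes were higher and 625 lower at rest, and at 3-fold 72 and 26. Under the other scalings, floors, probe rule and level filters, the higher count ran from 242 to 401 and the lower from 162 to 288. In the 3-pair fit, 331 genes rose without the pair that holds GW3965, against 520 with it. For the difference without and with LPS, limma found 0 higher and 0 lower genes when values were floored at the array median (204 at an unadjusted p under 0.05), and 0 and 0 when genes had to reach the median on every array (165). It found 6 lower under quantile normalization and 6 higher without the intensity trend. The cause was not tested. All genes that met the filter were refitted, but only named genes past a threshold were compared gene by gene. None of these reversed its direction, and no list median of 0.25 or more in size reversed its direction under these alternatives. Of 181 named genes at rest, 18 entered or left their 2-fold class under cyclic loess, 18 with the floor at the median and 16 under quantile normalization. In the 3-pair fit, 31 named results lost their call without the rest pair, 18 without the GW3965 pair and 6 without the pair of LPS and TSA + LPS. No paired analysis was possible because the labels give no replicate numbers, so no replicate block could be fitted; the pairs above are arrays matched by treatment. With 1 array a side, the rest pair cannot separate TSA from any other difference between the 2 arrays.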
